A study of Sus scrofa with 3 samples.

Results

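The liver of male pigs of the Jinhua breed was compared between embryonic day 90 (E90, a fetus in late gestation) and postnatal year 7 (P7y, a mature animal) by small RNA sequencing. No treatment or genotype separates the groups, and age is the only difference that the labels give. Each stage has 1 library, while the labels speak of 3 pigs a stage, and nothing states if their RNA was pooled. A library at postnatal day 30 (P30d) stands beside the pair and is given here for its values alone. Reads were summed by mature miRNA, that is by hairpin name and arm (5p or 3p), and scaled to 1000000 reads of named miRNAs, which gives the count per 1000000 reads (CPM). A mature miRNA was kept where its mean over E90 and P7y was 10 CPM or more. This left 306 of 974 mature miRNAs with a read, of which 854 had a read at E90 or P7y. Just below that limit lay miR-9-5p with 5.19 CPM at E90 and 14.5 at P7y, and just above it miR-1306-3p with 18.4 and 1.71.

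A miRNA is a short RNA cut from one arm of a folded hairpin transcript. It guides the silencing machinery to messenger RNAs that pair with its seed, bases 2 to 8 from the 5′ end, so miRNAs that share a seed can share targets. In late gestation the liver still makes blood cells and its hepatocytes still divide, whereas the mature liver is mostly an organ of quiescent hepatocytes. Several miRNA groups are known for such a transition. The let-7 family accumulates as tissues differentiate, miRNAs of the imprinted DLK1-DIO3 region and miR-483 in the IGF2 gene are typical of fetal growth, and the miR-17-92 clusters are known from proliferating cells.

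The sequences below are the most abundant reads of the miRNAs on which the results turn, as the deposited tables give them, written 5′ to 3′ as DNA with the seed in capitals. The first set was lower at P7y.
miR-184-3p: tGGACGGAgaactgataagggt
miR-503-5p: tAGCAGCGggaacagtactgcag
miR-424-5p: cAGCAGCAattcatgttttgaa
miR-542-3p: tGTGACAGattgataactgaaa
miR-532-5p: cATGCCTTgagtgtaggaccgt
miR-409-5p: aGGTTACCcgagcaactttgcat
miR-20a-5p: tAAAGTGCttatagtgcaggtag
miR-17-5p: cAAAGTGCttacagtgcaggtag
The second set was higher at P7y, apart from miR-16-5p, which is shown because it carries the seed of miR-195-5p and miR-424-5p.
let-7g-5p: tGAGGTAGtagtttgtacagtt
let-7b-5p: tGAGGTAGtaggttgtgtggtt
miR-10a-5p: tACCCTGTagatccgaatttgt
miR-145-5p: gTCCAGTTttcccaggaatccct
miR-150-5p: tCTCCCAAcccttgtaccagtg
miR-195-5p: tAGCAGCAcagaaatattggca
miR-16-5p: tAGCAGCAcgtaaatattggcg

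The tables held 9406525 reads at E90, with 3775157 at P30d and 9935073 at P7y, so the pair compared was sequenced to nearly the same depth. Named miRNAs took 98.3% of the reads at E90, with 96.0% at P30d and 99.9% at P7y. With no read, a miRNA could still have held up to 0.325 CPM at E90, with 0.828 at P30d and 0.302 at P7y, the level of 3 reads. All intervals are 95% and cover counting error only, and PCR copies of a molecule count as separate reads. With 1 library per stage there was no replicate check, so each difference is one between libraries, and spread between animals could not be measured.

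Fewer miRNAs made up the mature profile. The 10 most abundant held 63.99% of miRNA reads at E90 (Clopper-Pearson interval 63.96 to 64.02) and 74.90% at P7y (74.87 to 74.93). To reach 90% of the reads took 42 miRNAs at E90 and 23 at P7y. The median log2 ratio of CPM, P7y over E90, was -1.20 over the 306 miRNAs, and 228 of them were negative. Under TMM factors, a scaling that centres on the bulk of the miRNAs, every log2 ratio was 0.97 higher and the median was -0.23, with 164 negative. Size factors of DESeq2 gave a median of -0.10. A miRNA was therefore called higher or lower only where it differed at least 2-fold, with an interval off 0, under both CPM and TMM. Below, a relative log2 ratio has that median of -1.20 taken off the log2 ratio of CPM.

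By this rule 36 miRNAs were higher at P7y, 11.8% of the 306, and 113 were lower, 36.9%. CPM alone called 36 higher and 162 lower (52.9%), and TMM alone called 77 higher (25.2%) and 113 lower. DESeq2 size factors alone called 81 higher (26.5%) and 106 lower (34.6%). The split between higher and lower calls thus depended on the scaling. Each scaling adds the same amount to every log2 ratio. A miRNA called under both CPM and TMM therefore could not be called in the opposite direction under any of them. The 113 lower miRNAs went from 11.6% of reads at E90 to 1.28% at P7y, and the 36 higher ones from 8.37% to 20.8%. The remaining 157 held 79.9% and 77.8%. Of the 113 lower miRNAs 55 were under 10 CPM at P7y, and of the 36 higher ones 10 were under 10 CPM at E90. These passed the filter only through the library where they were high, so they had to differ. Among the 229 miRNAs with at least 10 CPM in both libraries, 58 were lower (25.3%) and 26 higher (11.4%). Of the 21 miRNAs whose mean reached 10000 CPM, 4 were higher (miR-143-3p, miR-10a-5p, let-7g-5p and let-7f-5p) and 1 was lower (miR-152-3p).

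**Figure D1:**
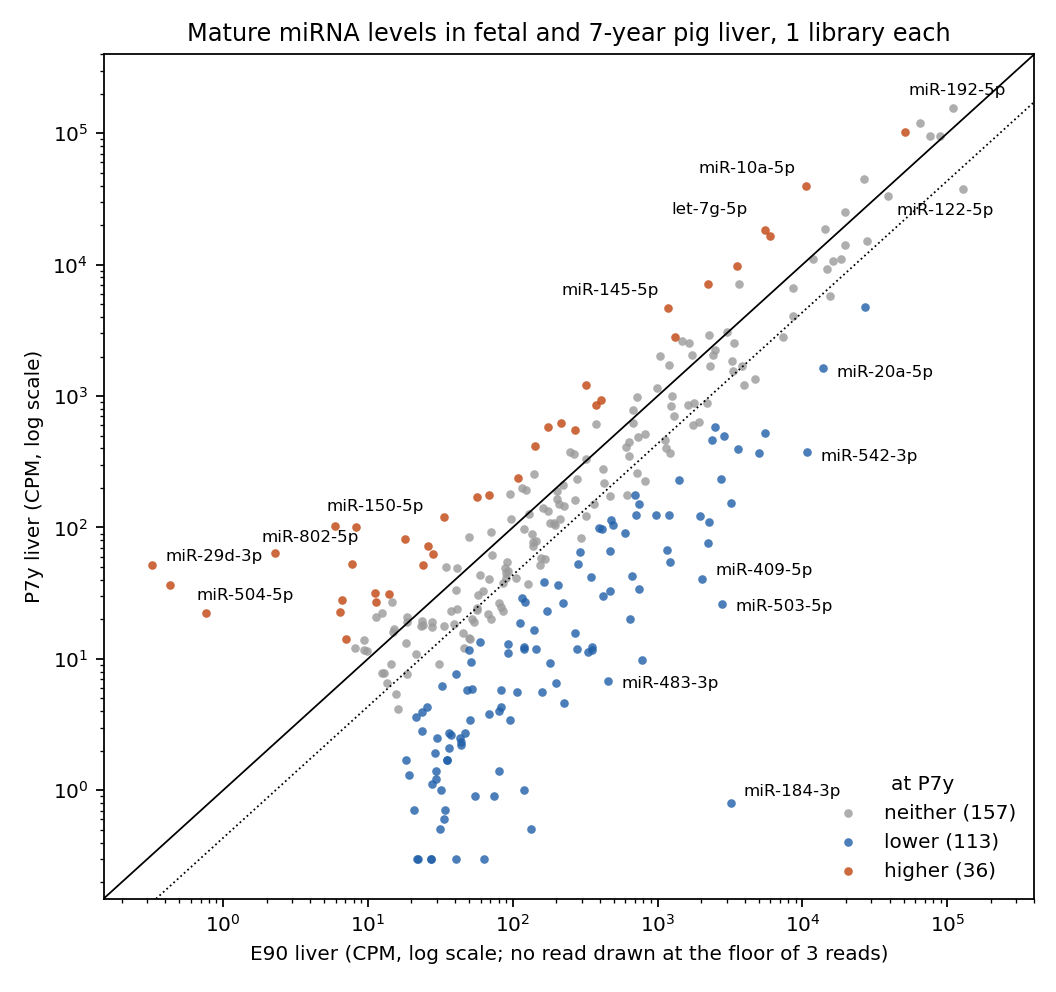
CPM at E90 (x axis) against P7y (y axis) for 306 mature miRNAs, both axes logarithmic, 1 library per stage; the solid line marks equal CPM and the dotted line the median ratio, and a miRNA without a read is drawn at the level of 3 reads. The 113 lower miRNAs reach from the lowest levels up to above 10000 CPM at E90, and miR-184-3p lies farthest below the lines with 3196 CPM at E90 and 0.806 at P7y.

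**Figure D2:**
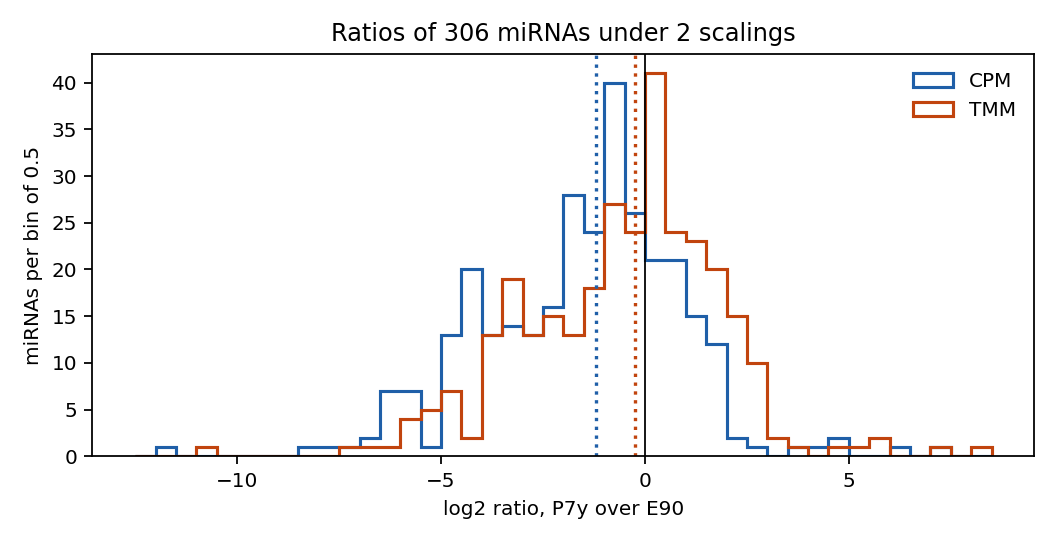
Number of miRNAs (y axis) per bin of the log2 ratio P7y over E90 (x axis) under CPM and under TMM scaling, with dotted lines at the medians of -1.20 and -0.23. TMM moves the whole distribution by 0.97 and leaves its shape as it is, with a longer tail on the lower side.

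The largest difference was that of miR-184-3p, a miRNA best known from the lens, cornea and nervous system. It stood at 3196 CPM at E90, with 5.24 at P30d and 0.806 at P7y, a 3963-fold lower CPM at P7y (relative log2 ratio -10.75, interval -11.96 to -9.77). At that level at P7y it passed the filter through E90 alone. Its rank moved from 38 among all miRNAs at E90 to 454, and its hairpin lies at chr7:53883626-53883708 on the plus strand (Sscrofa10.2). Where the mean reached 100 CPM it was followed by miR-503-5p, miR-424-5p, miR-483-3p, miR-409-5p and miR-494-3p, all of which belong to groups described below.

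miRNAs of the DLK1-DIO3 region, which are transcribed from the maternal chromosome only, fell. In the proximal part of the region, around MEG3 and the RTL1 antisense transcript, 5 of 13 miRNAs with a read passed the filter and 4 were lower, where 36.9% of all 306 were. Of these 4, miR-370-3p and miR-432-5p were under 10 CPM at P7y and passed through E90 alone. The exception, miR-770-5p, stood at 8.11 CPM at E90 and 12.2 at P7y and was not called. miR-127-3p, which lies opposite to the RTL1 gene, went from 2728 CPM at E90 to 385 at P30d and 233 at P7y (relative log2 ratio -2.35, interval -2.41 to -2.29). miR-136-3p stood at 269, 46.4 and 15.6 CPM in the same order, and miR-370-3p at 119.8, 16.0 and 1.01. Each of these had its highest level in the fetal library.

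In the distal part, the large cluster that holds miR-379 and miR-409, 21 of 64 miRNAs with a read passed the filter. All 21 were lower, where 36.9% of all 306 were. Their median relative log2 ratio was -3.64 against 0 over all 306. Of those 21, 15 were under 10 CPM at P7y and passed through E90 alone, so that they had to differ, and the count and median describe these libraries only. Over all 64, 63 had the higher CPM at E90 and 39 had no read at P7y. miR-409-5p was the most abundant, with 2039 CPM at E90, with 83.9 at P30d and 40.3 at P7y (relative log2 ratio -4.46, interval -4.60 to -4.31). miR-758-3p stood at 353, 26.5 and 12.3 CPM, miR-381-3p at 349.9, 168 and 41.9, and miR-379-5p at 278, 8.56 and 11.8. The region as a whole took 0.320% and 0.459% of E90 reads in its proximal and distal parts, and 0.0269% and 0.0177% of P7y reads. The reads of miR-411-3p could not be told apart from those of miR-379-3p and were counted with them.

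The IGF2 gene, an imprinted driver of fetal growth, hosts miR-483. miR-483-3p went from 456 CPM at E90 to 27.0 at P30d and 6.75 at P7y (relative log2 ratio -4.87, interval -5.24 to -4.53). At under 10 CPM at P7y it passed the filter through E90 alone, so it had to differ. The other miRNA of the IGF2-H19 list with a read did not pass the filter and had no read at P7y.

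The next 2 groups lie on the X chromosome in other mammals, and both fell as blocks. The first holds miR-424, miR-503, miR-542 and miR-450, a group that targets cell cycle genes in many tissues. All 8 of its miRNAs that passed the filter were lower, from 12 with a read, where 36.9% of all 306 were lower. Of these 8, 2 were under 10 CPM at P7y. All 6 with at least 10 CPM in both libraries were lower, beside 25.3% of the 229 such miRNAs. miR-542-3p was the most abundant, with 10738 CPM at E90, with 115 at P30d and 375 at P7y (relative log2 ratio -3.64, interval -3.68 to -3.59), and moved from rank 20 to rank 78. miR-450b-5p stood at 5006, 843 and 371 CPM, and miR-450c-5p at 3196, 1601 and 152. miR-503-5p held 2780.3 CPM at E90, with 72.6 at P30d and 26.2 at P7y (relative log2 ratio -5.52, interval -5.71 to -5.35). Its neighbour miR-424-5p held 784, 135 and 9.78 CPM. The name miR-424-3p, with 648, 318 and 20.1 CPM, had a most abundant read with the same seed as miR-424-5p. The group took 2.44% of miRNA reads at E90, with 0.389% at P30d and 0.101% at P7y. The 4 hairpins of miR-542 and miR-450 lie within 1113 bases of each other on a sequence that the tables do not place on a chromosome.

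The second block holds miR-532, miR-188, miR-500, miR-362 and miR-660 in 8880 bases at chrX:48632024-48640903 on the plus strand, where other mammals have them in an intron of the chloride channel gene CLCN5. All 8 members that passed were lower, from 13 with a read, where 36.9% of all 306 were lower. Of these 8, 2 were under 10 CPM at P7y. All 6 with at least 10 CPM in both libraries were lower, beside 25.3% of the 229 such miRNAs. The 8 members had relative log2 ratios from -3.69 to -2.07. The leading member, miR-532-5p, stood at 5542 CPM at E90, with 139.7 at P30d and 527 at P7y. miR-362-5p went from 2224 CPM at E90 to 189 and 76.4, and miR-500-3p from 1965 to 162 and 122. The relative log2 ratios of the members spread over 1.61, beside -2.60 for the sum of the cluster. P30d and P7y were close for the cluster as a whole, at 0.0626% and 0.0788% of reads.

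**Figure D3:**
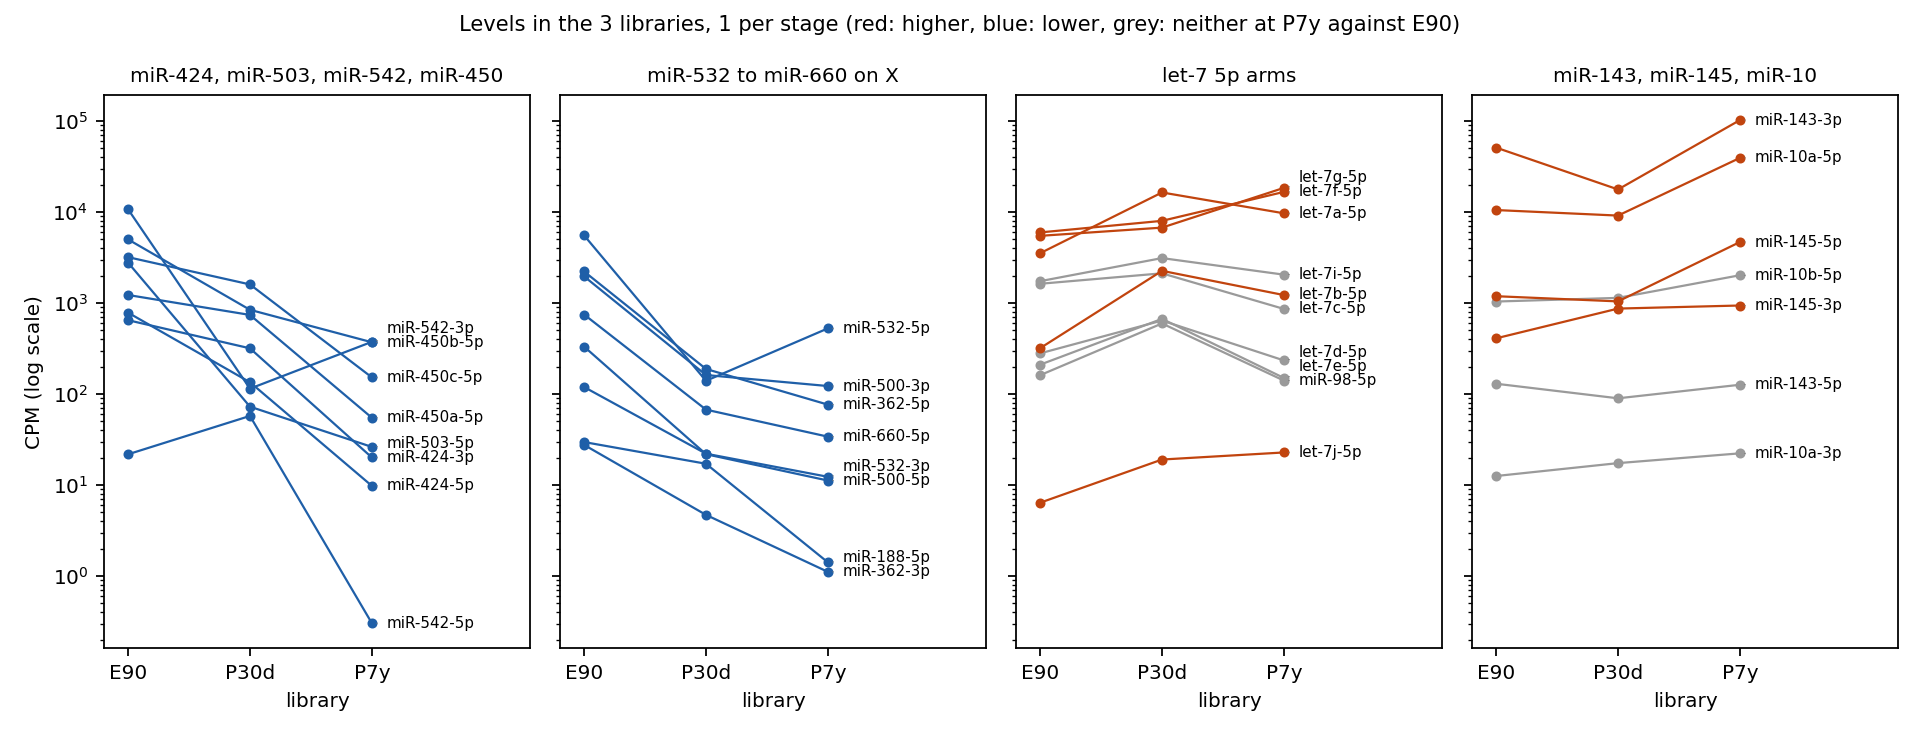
CPM on a logarithmic axis in the E90, P30d and P7y libraries for each kept member of 4 groups, 1 line per miRNA, coloured by its call at P7y against E90; miR-542-5p has no read at P7y and is drawn at the level of 3 reads. All members of the 2 left groups are lower at P7y than at E90, while the let-7 5p arms and the miR-143, miR-145 and miR-10 group hold members that are higher or not called.

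The miR-17-92 cluster and its paralogs, known for promoting proliferation and repressing cell death and cell cycle inhibitors, fell in part. Of 14 members that passed, from 23 with a read, 9 were lower and 5 were not called, where 36.9% of all 306 were lower. Of the 9, miR-18a-5p and miR-20b-5p were under 10 CPM at P7y and passed through E90 alone. Of the 12 members with at least 10 CPM in both libraries, 7 were lower. miR-20a-5p went from 13856 CPM at E90 to 592 at P30d and 1636 at P7y (relative log2 ratio -1.88, interval -1.90 to -1.85). miR-17-5p, counted with miR-106a-5p because they shared their most abundant read, stood at 2253, 359 and 110.1 CPM. miR-18a-5p held 159.7, 35.9 and 5.65 CPM. In contrast, miR-92a-3p held 14800 CPM at E90, with 10771 at P30d and 9267 at P7y, a relative log2 ratio of 0.53, and was not called. miR-19b-3p, with 4740.3, 1966 and 1346 CPM, was not called either. Names from 1 cluster on chromosome 11, within 791 bases at chr11:66610056-66610846, thus differed among themselves by far more than their counting intervals. However, miR-92a-3p, miR-19b-3p and miR-17-5p also have a hairpin in a cluster on the X chromosome. Their values sum both copies, so the ratio of the chromosome 11 copy alone cannot be told.

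The group was also sorted by seed instead of by locus. The 5 miRNAs with the seed AAAGTGC, which are miR-20a-5p, miR-17-5p, miR-93-5p, miR-106b-5p and miR-20b-5p, were all lower, from 18220 CPM in sum at E90 to 2019 at P7y. Of these, miR-20b-5p, with 31.4 CPM at E90 and 0.504 at P7y, passed the filter through E90 alone. The other 4 had at least 10 CPM in both libraries, where 25.3% of the 229 such miRNAs were lower. Over all 306, 36.9% were lower. With the seed ATTGCAC, that of miR-92a-3p and miR-25-3p, 1 of 5 was lower, 1 higher and 3 not called. The seed GTGCAAA, of miR-19a-3p and miR-19b-3p, had 1 lower and 1 not called. The lower one, miR-19a-3p, lost its call when only copies of the most abundant read were counted. miR-25-3p shares its transcript with miR-93 and miR-106b, and it stood at 3338 CPM at E90 and 1550 at P7y, a relative log2 ratio of 0.10.

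The higher side was led in abundance by miR-143-3p, miR-10a-5p and let-7. Of 10 miRNAs with the let-7 seed GAGGTAG, 5 were higher at P7y and 5 not called, where 11.8% of all 306 were higher. The sum of the 10 went from 19328 CPM at E90 to 49503 at P7y. let-7g-5p rose from 5480.1 CPM at E90 to 6748 at P30d and 18456 at P7y (relative log2 ratio 2.96, interval 2.94 to 2.97). let-7f-5p stood at 5974, 8010.2 and 16666 CPM. let-7a-5p held 3529.8 CPM at E90, with 16430.4 at P30d and 9697 at P7y, its highest level being at P30d. let-7b-5p held 319, 2260.0 and 1224 CPM (relative log2 ratio 3.14, interval 3.09 to 3.20), also with its highest level at P30d. The remaining higher one, let-7j-5p, held 6.38 CPM at E90 and 22.8 at P7y and passed the filter through P7y alone.

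The other 5 miRNAs with this seed were not called. let-7i-5p stood at 1739 CPM at E90 and 2051 at P7y, and let-7c-5p at 1629 and 861. let-7c-5p had the lowest relative log2 ratio of the 5p arms, 0.29, although its most abundant read matches that of let-7g-5p at 19 of 22 bases, against 18 for let-7b-5p. The let-7 list as fixed, which includes 3p arms and miR-98, had 4 of 10 members higher and 0 lower, beside 11.8% higher over all 306. Its median relative log2 ratio was 1.22.

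miR-10a-5p, which lies in the HOXB gene cluster in mammals, stood at 10527 CPM at E90, with 9152 at P30d and 39416 at P7y (relative log2 ratio 3.11, interval 3.10 to 3.12). It moved from rank 21 to rank 7. miR-10b-5p, its counterpart in the HOXD cluster with the same seed ACCCTGT, stood at 1039, 1139.9 and 2021 CPM, and was not called with a relative log2 ratio of 2.16. The HOX list had 1 of 3 members higher and 0 lower, beside 11.8% higher over all 306. miR-125b-5p, of the group of miR-99, miR-100 and miR-125, rose from 2215 CPM at E90 to 11911 at P30d and 7112 at P7y. The other 7 of the 8 members of that group were not called, among them miR-99a-5p with 89255 CPM at E90 and 95208 at P7y.

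miR-143 and miR-145, which lie together and mark smooth muscle and fibroblasts, were higher in 3 of 4 arms at chr2:157344726-157346215. miR-145-5p stood at 1189 CPM at E90, with 1043 at P30d and 4688 at P7y (relative log2 ratio 3.18, interval 3.15 to 3.21). miR-143-3p went from 51123 CPM to 102623, with 17730.4 at P30d, and a ratio of 2.01 placed it at the limit of the call. The call was lost with reads without a mismatch alone and with hairpins known in pig alone. The other mesenchymal miRNAs were not called: miR-199a-3p stood at 3012 CPM at E90, with 6113 at P30d and 3056 at P7y, and miR-214-3p at 95.9, 498 and 178. In all 3 of 8 members of the mesenchymal list were higher and 0 lower, beside 11.8% higher over all 306.

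Some miRNAs were scarce in the fetal library and present in the mature one. miR-802-5p, a hepatocyte miRNA linked to glucose metabolism, had 21 reads at E90. It stood at 2.27 CPM at E90, with 685 at P30d and 63.5 at P7y (relative log2 ratio 6.01, interval 5.38 to 6.71). miR-150-5p, which marks mature lymphocytes, held 5.95, 118 and 103 CPM (relative log2 ratio 5.31, interval 4.92 to 5.73). miR-504-5p held 0.757, 11.6 and 22.2 CPM. Each of these miRNAs was under 10 CPM at E90 and passed the filter through P7y alone, so it had to differ. For miR-802-5p and miR-150-5p the P30d level was the highest of the 3, so for these the fetal library was the low one.

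**Figure D4:**
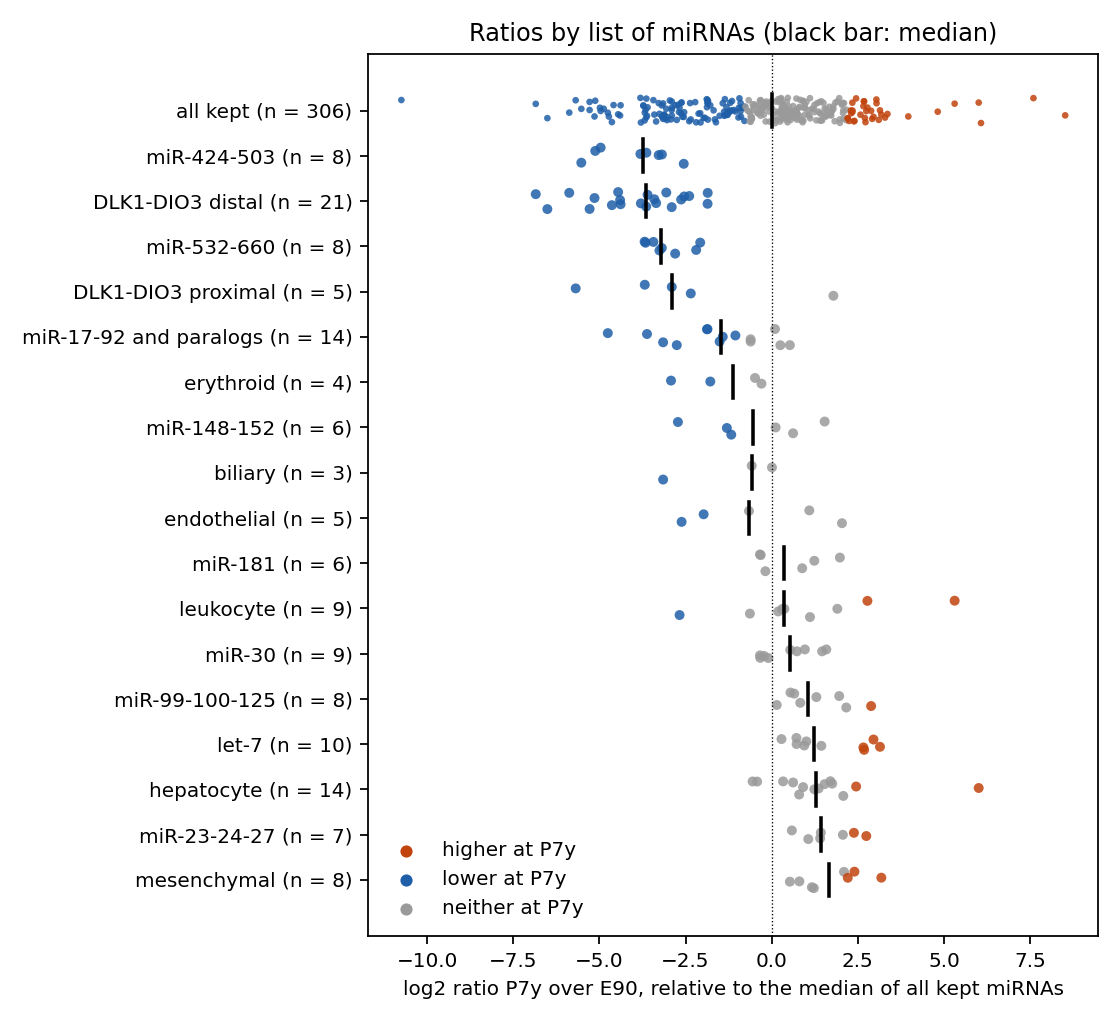
Relative log2 ratio P7y over E90 (x axis) of each kept miRNA by list, coloured by call, with a black bar at the median of each list; the first line holds all 306 miRNAs with their median at 0. The 4 lists directly under it hold blue points almost alone, with medians from -3.72 to -2.90, and the mesenchymal, let-7 and hepatocyte lists have medians above 0 and few red points.

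Markers of the liver and of other cells were examined next, since in whole tissue fewer cells of a type and less RNA per cell cannot be told apart. The counts of calls in these short lists stand beside 36.9% lower and 11.8% higher over all 306. Hepatocyte miRNAs held 40.8% of reads at E90 and 42.4% at P7y, and 2 of 14, miR-802-5p and miR-101c-3p, were higher and 0 lower. Of these 2, miR-802-5p passed the filter through P7y alone. The list is wider than the markers miR-122, miR-192, miR-194, miR-148a and miR-802, and it includes miR-101. miR-101-3p alone went from 65392 CPM to 119966. The whole list rose by less, from 407644 CPM to 424412, so its other members in sum fell under CPM. miR-122-5p, the classical hepatocyte miRNA, held 128017 CPM at E90 and 37870 at P7y, and was lower under CPM only, with a relative log2 ratio of -0.55. miR-192-5p held 109466 and 154836 CPM, and miR-148a-3p 75920 and 95666, neither of them called. Of the markers named above, miR-122-5p, miR-192-5p and miR-148a-3p were thus among the 10 most abundant miRNAs of both libraries. miR-194a-5p was at rank 8 at E90 and 14 at P7y. miR-802-5p was scarce, with 2.27 CPM at E90 and 63.5 at P7y.

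Of 4 erythroid miRNAs 2 were lower and 2 not called, a share not far from the 36.9% over all. The list held 0.724% of reads at E90 and 0.182% at P7y. miR-144-5p stood at 1168 CPM at E90, with 54.7 at P30d and 66.9 at P7y, and miR-144-3p at 978, 1195 and 123. miR-451-5p, from the same transcript as miR-144 and abundant in red cells, stood at 3941, 1339 and 1223 CPM and had a relative log2 ratio of -0.48, which was not called. miR-486-5p stood at 1147 CPM at E90 and 406 at P7y, a relative ratio of -0.30. The relative ratios of the 4 thus ranged from -2.92 to -0.30.

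Leukocyte miRNAs held 0.145% of reads at E90 and 0.142% at P7y, and of 9 kept 2 were higher (miR-150-5p and miR-146a-5p) and 1 lower (miR-342-5p). Of these, miR-150-5p passed the filter through P7y alone and miR-342-5p through E90 alone. miR-223-3p, a granulocyte and macrophage miRNA, stood at 296 CPM at E90, with 50.2 at P30d and 83.1 at P7y, a relative log2 ratio of -0.63, and was not called. Of 5 endothelial miRNAs 2 were lower, miR-221-3p with 3567 CPM at E90 and 394 at P7y and miR-222-3p with 466 and 33.1. miR-126-3p, the marker most specific to endothelium, held 11832 CPM at E90 and 10951 at P7y and was not called.

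Of the biliary list 1 of 3 was lower, miR-429-3p with 35.1 CPM at E90 and 1.71 at P7y, while miR-200b-3p held 613 and 178 CPM and was not called. miR-429-3p passed the filter through E90 alone. Of the 2 biliary members with at least 10 CPM in both libraries 0 were lower. Most markers of other tissues were under 10 CPM in both libraries. Exceptions beside miR-375-3p included miR-499-5p of the striated muscle list, with 154.9 CPM at E90 and 51.5 at P7y. Of the neural list, miR-128-3p held 93.1 and 12.9 CPM and miR-218-5p 57.7 and 30.4, in the same order. The striated muscle list had 0 of 2 called and 0.0176% of reads at E90 against 0.00847% at P7y, the neural list 1 of 3 lower and 0.0183% against 0.00663%. From the pancreas list miR-216b-5p had 27.2 CPM at E90 and no read at P7y, while miR-375-3p, also made by gut and biliary cells, had 1289 and 706 CPM. The pluripotency list held 1 miRNA with a read, at 0.108 CPM at E90 and 1.31 at P7y. The part of these cell types in the other results was not tested.

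The remaining lists were mixed or flat. Their counts of calls stand beside 36.9% lower and 11.8% higher over all 306. All 9 kept members of the miR-30 family, abundant in differentiated epithelia, were uncalled, and miR-30a-5p stood at 39277 CPM at E90 and 33261 at P7y. The miR-181 list had 0 of 6 called. Of the miR-148 and miR-152 list 3 of 6 were lower, led by miR-152-3p with 26956 CPM at E90, with 2063 at P30d and 4751 at P7y, while miR-148a-3p, which shares its seed CAGTGCA, was not. The other two of these 3 were under 10 CPM at P7y. Of miR-23, miR-24 and miR-27, 2 of 7 were higher, both from the copy of the cluster on chromosome 2: miR-23a-3p went from 142 to 414 CPM and miR-27a-3p from 374 to 849.8. The copies on chromosome 10, miR-23b-3p with 675 and 777 CPM and miR-27b-3p with 16288 and 10613, were not called. For miR-29, 1 of 2 was higher, and miR-29a-3p stood at 1312 CPM at E90, with 2059 at P30d and 2815 at P7y. Its call was lost with reads without a mismatch alone. The ageing list had 1 of 5 higher, miR-34c-5p with 11.3 CPM at E90 and 31.9 at P7y, a call that was lost when only copies of the most abundant read were counted. The metabolic list had 1 of 3 lower, miR-107-3p with 740.1 and 150.0 CPM.

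miRNAs with the seed AGCAGCA split by locus. miR-195-5p and miR-497-5p, at chr12:54717009-54717403, were higher, with 177 and 579 CPM at E90 and P7y for the first and 24.1 and 51.5 for the second. miR-15a-5p and miR-15b-5p were lower, with 281 and 52.5 CPM and with 165 and 38.5. miR-16-5p, from the same transcripts as both of these, stood at 2207 and 888 CPM and was not called. miR-424-5p, with 784 and 9.78 CPM, was the lowest of them relative to E90. Outside the seed the reads differ: that of miR-195-5p matches miR-16-5p at 19 of 22 bases, that of miR-15a-5p at 16 and that of miR-424-5p at 12. In sum the 8 miRNAs with this seed went from 4293 CPM to 1693, a relative log2 ratio of the sum of -0.14. Of the 8, 3 were higher, 4 lower and 1 not called, beside 11.8% higher and 36.9% lower over all 306. Among them miR-195a-5p passed the filter through P7y alone and miR-424-5p through E90 alone. The lower ones include the name miR-424-3p, with 648 CPM at E90 and 20.1 at P7y. Both arm names of miR-424 thus had most abundant reads with this seed and may hold reads of 1 arm, which was not tested.

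Calls of named hairpins were also counted by chromosome, beside 36.9% lower and 11.8% higher over all 306. A miRNA with several hairpins was placed at the copy with the most reads. On the X chromosome 16 of 29 miRNAs were lower and 4 higher, and 8 of the 16 belong to the cluster around miR-532. On chromosome 7, which holds miR-184 and the mapped part of the DLK1-DIO3 region, 6 of 7 were lower, but 4 of these 6 were under 10 CPM at P7y. On chromosome 10, 1 of 11 was called. Some smaller clusters also kept together, and others were split. miR-182-5p, miR-183-5p and miR-96-5p, a group of sensory and epithelial cells at chr18:20030634-20035303, went from 1063 CPM in sum to 119.96 with 3 of 3 lower. In the cluster of miR-221 and miR-222, 2 were lower and 1 was not called. In that of miR-191 and miR-425, 1 was lower and 3 were not called.

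The 2 arms of a hairpin were compared next, since their ratio within a library does not depend on scaling. Of 147 hairpins that reached 50 reads at both stages, the more abundant arm differed in 8, in 7 of the 122 with at least 200 reads. miR-574 differed most: its 5p arm held 79.7% of 641 reads at E90 (76.4 to 82.8) and 2.85% of 316 at P7y (1.31 to 5.34). The log2 balance of 5p over 3p, P7y minus E90, was -6.99 (exact conditional interval -8.24 to -6.06). miR-574-5p stood at 55.3 CPM at E90, with 54.1 at P30d and 0.907 at P7y, and miR-574-3p at 14.1, 338 and 30.9. The 5p share of miR-144 went from 54.4% to 35.1%, and that of miR-28 from 50.5% to 33.0%. miR-181c moved the other way, from 29.0% to 54.9%. For miR-194 the intervals of the shares overlapped. Its 5p name also leaves out the reads counted as miR-194a-5p, 27936 CPM at E90 and 15262 at P7y. For miR-199a the 3p arm includes the reads of miR-199b-3p, while miR-199b-5p was counted apart. The place of miR-194 and miR-199a among the 8 thus depends on the naming. The same limit holds for any balance of miR-424, whose arm names had most abundant reads with the same seed.

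Without a change of the major arm, miR-210, a miRNA induced by low oxygen, had 0.400% of 750 reads in its 5p arm at E90 and 40.3% of 67 at P7y. miR-210-3p itself was lower, with 80.8 CPM at E90, with 8.28 at P30d and 4.03 at P7y. At under 10 CPM at P7y it passed the filter through E90 alone, so it had to differ. The balance moved at least 2-fold toward the 5p arm in 27 hairpins and toward the 3p arm in 36, with intervals apart.

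**Figure D5:**
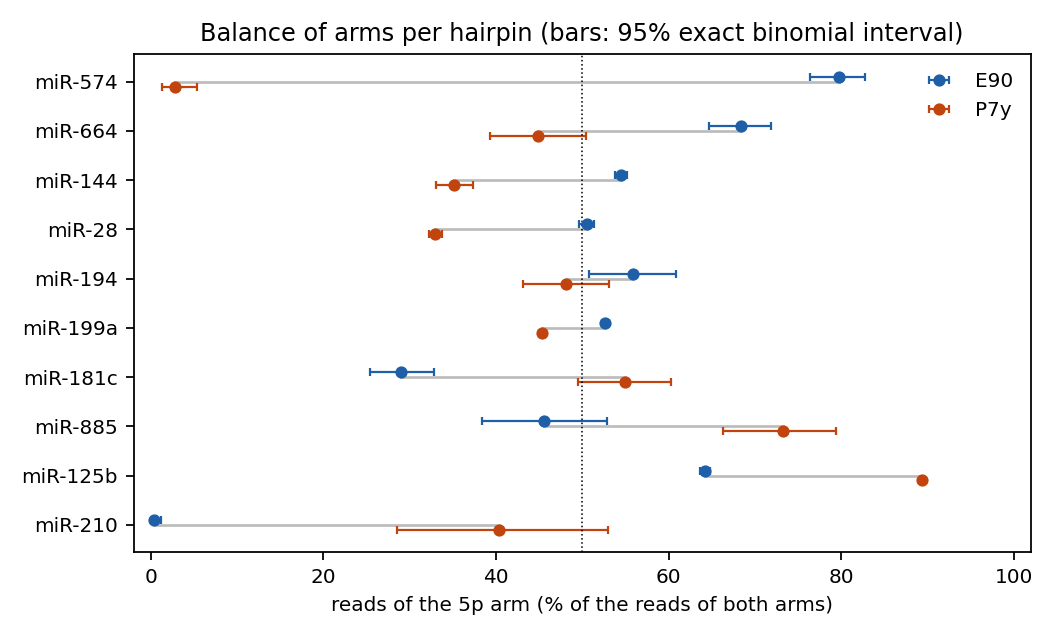
Share of the 5p arm in the reads of both arms (x axis, %) at E90 and P7y for the 8 hairpins whose more abundant arm differed and for miR-125b and miR-210, with 95% exact binomial intervals. miR-574 moves from 79.7% to 2.85% and miR-210 from 0.400% to 40.3%. miR-199a and miR-194 are drawn near the dotted line at 50%, but their balance depends on the naming, and miR-194a-5p is left out.

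The most abundant read of an arm was compared as well, since a shift of its 5′ end changes the seed. Among 289 miRNAs whose reads could be aligned, 204 had the same read in both libraries, 60 differed at the 3′ end only and 25 at the 5′ end. For miR-802-5p and miR-483-3p the shift gave these seeds.
miR-802-5p at E90: cAGTAACAaagattcatccttgt
miR-802-5p at P7y: tCAGTAACaaagattcatcctt
miR-483-3p at E90: tCACTCCTctcctcccgtcttcc
miR-483-3p at P7y: cACTCCTCtcctcccgtcttcc
The first read rests on 9 of 21 reads at E90 and the second on 328 of 630 at P7y. For miR-483-3p it was 1706 of 4217 and 33 of 67. The scarcer library of each thus holds few copies, and other reads of the arm were not compared.

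Of the 854 miRNAs with a read at E90 or P7y, 289 had no read at P7y and 69 none at E90. With no read at P7y and at least 10 CPM at E90 there were 13. Of these, 6 passed the filter on the mean: miR-487b-3p, miR-412-5p and miR-323-3p of DLK1-DIO3, miR-216b-5p, miR-137-3p and miR-542-5p. miR-487b-3p had the highest level of them, 63.5 CPM at E90 and 6.35 at P30d, which makes it at least 210.0-fold lower at P7y against the level of 3 reads. Among the 306 kept miRNAs only miR-29d-3p had no read at E90, with 51.7 CPM at P7y. The others without a read at E90 reached at most 5.14 CPM at P7y. Its hairpin at chr9:148552989-148553094 is the one that the E90 and P30d tables name miR-29c, with 5.51 and 24.4 CPM, so the locus did have reads at E90 under another name. The most abundant reads under the 2 names differ. Its most abundant read at P7y matches the first 18 bases of that of miR-29a-3p, so reads of the pair may not be separable.

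A few names are not typical miRNAs. The tRNA-like list had 1 of 5 higher, miR-3968-5p with 217 CPM at E90, with 41.1 at P30d and 621 at P7y. Another 1 was lower, miR-2478-5p with 199.7 CPM at E90 and 6.55 at P7y, which passed the filter through E90 alone. Over all 306, 11.8% were higher and 36.9% lower. Both arm names of miR-2478 hold similar reads, and their sum was 1401 CPM at E90, with 104.9 at P30d and 1721 at P7y, so the call of the 5p name alone does not describe the pair. The chromosome 6 repeat region had 0 of 3 called, and miR-716b-5p from the same stretch was higher, with 0.433 CPM at E90 and 36.4 at P7y. At under 10 CPM at E90, miR-716b-5p passed the filter through P7y alone, so it had to differ.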

How the data were processed

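The tables, 1 per library, list hairpin arms. Per the file headers, the authors placed reads on known mammalian miRNA hairpins, those of pig included, and on the pig genome. Deposited reads per arm are expected counts, because reads that fit several hairpins were shared out, and the deposited copies of the most abundant read of an arm are counts. Per the submitters' processing notes the build is Sscrofa10.2; the aligner is not given in the sources used here. Positions relative to exons and introns were not analysed here.

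Expected counts were summed by mature name and rounded. Of 1008 names, 14 rounded to 0 and 20 were joined to another name with which they shared a most abundant read (at least 18 nt, over 50% of either name's reads in a library). Its details were settled with the tables in view. Ratios carry exact conditional binomial intervals, shares Clopper-Pearson intervals. For the size of a ratio, no read was set to 3 reads. Arm balances had 0.5 added to each arm. Scaling used edgeR 4.0.16 (TMM) and DESeq2 1.42.0 (size factors); the rest ran in Python 3.11.15 with pandas 2.3.3 and SciPy 1.17.1. The intervals and calls were tested on simulated data. There, with more miRNAs lowered than raised, TMM moved the ratios further up than the simulated shift.

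The naming rule took the top 10 by abundance at either stage; in each direction the 12 miRNAs of largest ratio whose mean reached 100 CPM and whose interval lay off 0; per list, the 4 members of highest mean at most; hairpins whose major arm differed; members of the 10 largest seed families and clusters (hairpins within 10 kb); and miRNAs read in 1 library only. miRNAs named outside this rule were chosen after their values were seen. The members and lists were chosen with earlier results of these data known. With 1 library a stage no p-value can be had. Alternatives are in the closing section.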

Additional observations from a re-analysis of the deposited data

Results flagged for a closer look

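Some reads belong to hairpins that the authors predicted and that no comparison used. At E90 the predicted hairpins held 162924 reads, 1.73% of the table, in 1282 arms. At P7y they held 14866 reads, 0.150%, in 402 arms. Both lie above the 3 reads that a count of 0 allows.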

How the results depend on the processing

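No paired analysis was possible because each stage has 1 library. The 36 higher calls became 77 under TMM alone and 81 under DESeq2 size factors alone. Without a filter 89 were higher and 228 lower of 854 miRNAs, and with a filter at 100 CPM 18 were higher and 54 lower of 165, since other numbers of miRNAs were tested. With hairpins known in pig only, 74 of 212 were lower. The other alternatives gave 24 to 48 higher and 106 to 162 lower, within 1.5 times the main counts. Among alternatives that kept both scalings, 5 of the 36 higher and 10 of the 113 lower calls were lost under at least 1 in which they were tested, and none was called in the opposite direction. The 5 were miR-143-3p, miR-193b-3p, miR-212-5p, miR-29a-3p and miR-34c-5p; the cause was not tested. Seeds taken from the known sequence in the tables, an alternative chosen after seeing the data, left the sums of 9 of the 10 largest seed families within their intervals, and 1, of miR-101, had no counterpart. The planned check with seeds of a reference table of mature miRNAs was not run, as no such table was used here. A miRNA under 10 CPM at E90 or at P7y had under 100 reads in that library.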
